A study of Mus musculus with 4 samples.

Results

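Wnt ligands, Frizzled receptors, secreted Wnt antagonists and a set of canonical target and feedback genes were examined in mouse podocytes exposed to IL-12. The genes were chosen by name from the protein-coding rows of the deposited count matrix. Symbols beginning with Wnt, Fzd, Dkk or Sfrp and a number were taken, together with Axin2, Lef1, Tcf7, Nkd1, Nkd2, Rnf43 and Znrf3. This gave 44 of the 54532 genes deposited, namely 19 ligands, 10 receptors, 8 antagonists and 7 targets or feedback regulators. The cells were MPC5, a conditionally immortalized mouse podocyte line. In the treated group, 2 samples were given IL-12 at 400 ng/ml and collected after 6 h, and in the control group 2 samples received saline, whose collection time is not given by the labels. No genetic change distinguished the groups, every library came from the same line, and RNA of all cells in a sample was sequenced together. The comparison asked which transcripts of podocytes respond to IL-12, a cytokine that was studied here as a candidate factor in podocyte injury.

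Wnt proteins are secreted, lipid-modified signals that are received by Frizzled receptors together with the co-receptors Lrp5 and Lrp6. In the canonical branch the signal inactivates a complex that otherwise marks β-catenin for degradation, and the stabilized β-catenin joins TCF/LEF factors on target genes. Dkk1 and related proteins block the co-receptors, and Sfrp proteins bind the ligands, while Axin2, Nkd1, Nkd2, Rnf43 and Znrf3 are targets that feed back on the pathway. Sustained activity of this pathway in podocytes is known to go with foot process injury and proteinuria.

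The count totals lay between 18355379 and 20098012 per library, so that 3 counts, taken as the floor, corresponded to 0.149 to 0.163 CPM, counts scaled to a common library size. This floor covers counting error only. Of 12 podocyte markers, 2 (Tcf21 and Ptpro) were at 0 in all 4 libraries, and the defining slit diaphragm gene Nphs1 was nearly absent, at 0, 1, 0 and 0 counts in control 1, control 2, IL-12 1 and IL-12 2. The actin-associated podocyte gene Synpo was abundant, at 9269 and 8869 counts in control and 5965 and 5552 counts with IL-12. The summed level of the podocyte markers was 386.5 to 386.7 FPKM in control and 389.7 to 395.2 FPKM with IL-12. FPKM are fragments scaled to gene length and library size. Most of the podocyte sum came from Actn4 (control mean 188.5 FPKM) and Kirrel (control mean 116.5 FPKM). Among the podocyte markers 3 were called higher and 1 lower. Immune markers summed to 0.0134 to 0.0258 FPKM in control and 0.0166 to 0.0362 FPKM with IL-12, with 2 of 5 at 0. Endothelial markers summed to 1.62 to 1.64 FPKM and 1.34 to 1.36 FPKM, and tubular markers to 37.9 to 39.5 FPKM and 31.0 to 33.5 FPKM. The endothelial sum was mostly Ehd3 (control mean 1.57 FPKM) and the tubular sum mostly Lrp2 (control mean 38.65 FPKM). Mesangial markers summed to 13.91 to 14.04 FPKM and 13.88 to 16.0 FPKM, and fibroblast markers to 1.31 to 1.61 FPKM and 2.31 to 2.40 FPKM. The part of these marker differences in the results below was not tested.

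Wnt ligands and targets changed by moderate amounts. Axin2 and Tcf7 rose, the ligands Wnt7a, Wnt7b, Wnt5a and Wnt9a rose, Fzd6 and Dkk3 rose slightly, and Wnt4 fell. Of the 44 genes, 7 were at 0 in all 4 libraries, 13 had counts but did not pass the filter on low counts, and 24 were tested. Calls were made at an adjusted p below 0.05 in edgeR's quasi-likelihood test, which was reached by 9 of the 24 (37.5%) against 30.5% of the 14095 genes tested. Of the 9, 8 were higher with IL-12 (16.1% of all genes tested) and 1 was lower (14.4% of all genes tested). With scaling to total counts alone, the calls over all genes moved from 2267 higher and 2030 lower to 1765 higher and 2590 lower, and those among the members moved to 7 higher and 1 lower. No member was called at over 2-fold (0 of 24, against 1.61% of all genes tested), 0 members passed 2-fold at an unadjusted p below 0.05, and DESeq2 also gave 0. The 2 libraries of each group did not overlap for 16 of the 24 members, with IL-12 above control for 13 and below for 3. Over all genes tested that share was 62.9%. The median log2 fold change of the tested members was 0.17, and that of all genes tested was -0.002. Because all RNA of a sample was pooled, fewer cells of a kind and less RNA per cell cannot be told apart. Whether the libraries within each group were grown apart is not stated, so that the p-values may measure technical spread alone.

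**Figure D1:**
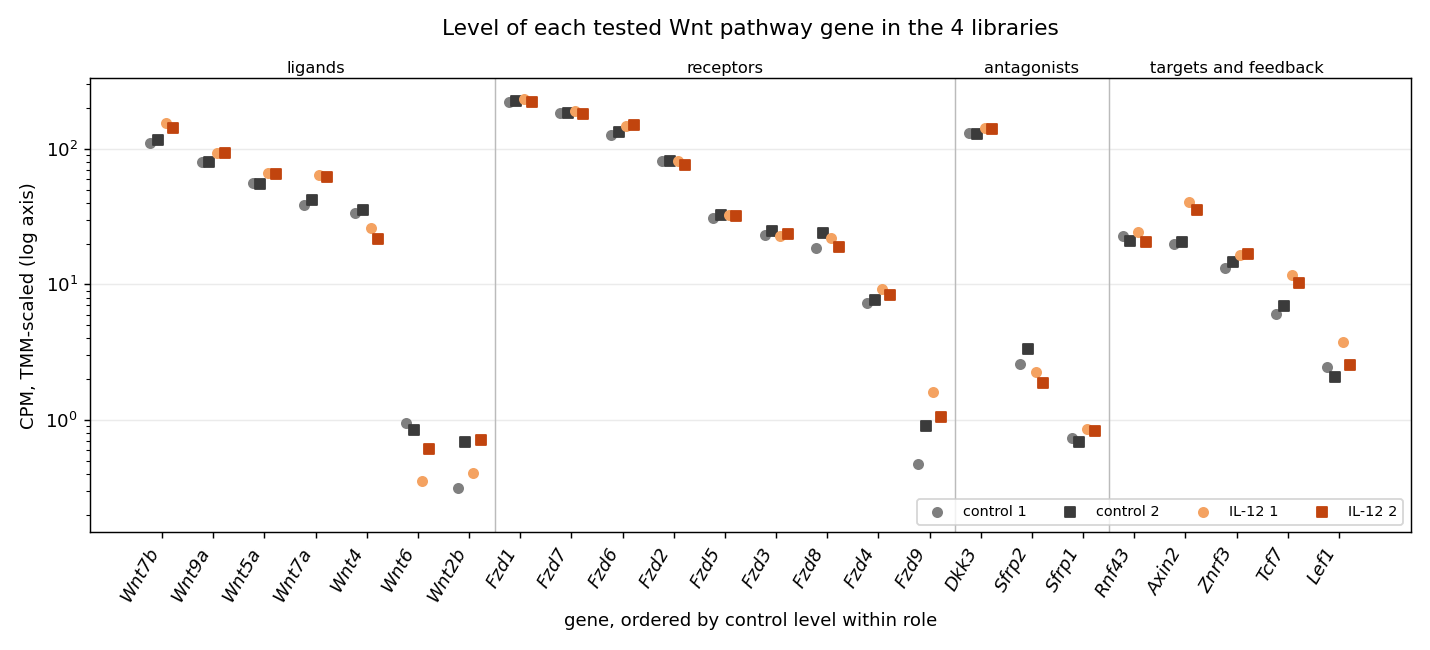
CPM scaled by the TMM method (log axis) of each of the 24 tested genes in the 4 libraries, grouped by role and ordered by control level. Points are single libraries (grey, control; orange, IL-12). Axin2, Tcf7, Wnt7a and Wnt7b lie higher in both IL-12 libraries and Wnt4 lower, whereas the points of Fzd1, Fzd2, Fzd3, Fzd5, Fzd7 and Fzd8 overlap between the groups.

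The sequence in front of the gene start is shown for 3 of the called genes, namely the target with the largest change, the ligand that rose most and the ligand that fell. Sequences were taken from the RefSeq promoter table of GRCm38.p6, written 5′ to 3′ on the strand of the gene, and end at the base before the deposited gene start. Capitals mark GC boxes, GGGCGG on either strand. The Axin2 sequence lies at chr11:108920099-108920348 on the plus strand, the Wnt7a sequence at chr6:91411364-91411603 on the minus strand and the Wnt4 sequence at chr4:137277385-137277488 on the plus strand.
Axin2: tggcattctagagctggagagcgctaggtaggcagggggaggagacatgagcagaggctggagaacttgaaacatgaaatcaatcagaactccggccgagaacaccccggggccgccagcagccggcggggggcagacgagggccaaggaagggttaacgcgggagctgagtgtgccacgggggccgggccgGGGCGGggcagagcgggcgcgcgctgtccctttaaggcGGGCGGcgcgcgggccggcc
Wnt7a: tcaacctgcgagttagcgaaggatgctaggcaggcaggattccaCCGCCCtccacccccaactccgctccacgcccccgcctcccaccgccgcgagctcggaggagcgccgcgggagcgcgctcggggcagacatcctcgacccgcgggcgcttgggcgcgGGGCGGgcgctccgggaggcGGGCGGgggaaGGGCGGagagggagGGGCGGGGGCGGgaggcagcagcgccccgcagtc
Wnt4: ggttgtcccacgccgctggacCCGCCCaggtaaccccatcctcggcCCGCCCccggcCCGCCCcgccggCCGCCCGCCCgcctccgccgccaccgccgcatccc
The GC content of these windows was 69.2% over 250 bases for Axin2, 77.1% over 240 bases for Wnt7a and 83.7% over 104 bases for Wnt4. They held 2, 6 and 5 GC boxes in that order. The table had promoters for 31 of the 44 genes, 39 promoters in all. In the 250 bases before the RefSeq start, a GC box was found in 26 of these 39 (66.7%) and in 32.7% of all 32851 promoters. For some promoters, that of Wnt4 among them, the RefSeq start lies inside the deposited gene. The window scanned for Wnt4 thus differs from the sequence shown. All 5 called genes that the table held (Axin2, Tcf7, Wnt4, Wnt7a and Wnt9a) had a GC box. The called genes Wnt5a, Wnt7b, Fzd6 and Dkk3 had no promoter there. Tested members that were not called also had a GC box (Fzd4, Fzd5, Fzd7, Fzd9, Lef1, Wnt2b and Wnt6), whereas Fzd1, Rnf43 and Sfrp2 had none. The core letters bound by TCF/LEF factors (CTTTGAA in the first form, CTTTGAT in another, and further CTTTGTA as well as CTTTGTT, on either strand) were found in 5 of the 39 member promoters (12.8%) and in 14.8% of all promoters. Those were promoters of Dkk1, Fzd7, Lef1, Wnt11 and Wnt5b, and 0 of the 5 called genes had these letters in the window. The Lef1 match belonged to a RefSeq start inside the deposited gene. A match describes letters only, and the known TCF/LEF elements of a gene may lie elsewhere.

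Among the 19 ligands, 7 were tested, 4 rose, 1 fell and 2 were not called, beside 16.1% higher and 14.4% lower over all genes tested. Wnt7a (ENSMUSG00000030093, GRCm38 chromosome 6 from 91363981 to 91411363, minus strand), a ligand used in epithelial and vascular development, stood at 38.5 and 42.1 CPM in control and at 64.0 and 62.02 CPM with IL-12. Both treated libraries lay above both controls. On average this was 40.3 ± 2.50 CPM (SD, n = 2) against 63.01 ± 1.40 CPM (SD, n = 2), and edgeR gave a log2 fold change of 0.65 with a standard error of 0.06 and an adjusted p of 1.59e-07. No annotated gene overlaps Wnt7a.

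Wnt7b (ENSMUSG00000022382, chromosome 15 from 85535437 to 85582473, minus strand), which in the kidney is known from the growth of the medulla, had 111.0 and 115.5 CPM in control and 153.7 and 142.1 CPM with IL-12. The groups did not overlap. The increase was 1.31-fold, with a log2 fold change of 0.39 ± 0.05 (SE) and an edgeR adjusted p of 3.96e-06. AU022754 overlaps this gene on the opposite strand, with 263 counts in all against 9895 for Wnt7b, and the sources do not state whether counting used strand.

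Wnt5a (ENSMUSG00000021994, chromosome 14 from 28504750 to 28527448, plus strand) is the main ligand of the β-catenin-independent branches. It measured 56.4 and 55.2 CPM in control and 66.5 and 64.7 CPM with IL-12. Treated libraries were again above the controls, by 1.18-fold, with a log2 fold change of 0.24 ± 0.05 (SE) and an edgeR adjusted p of 0.00213. The opposite-strand gene Gm2670 overlaps it with 30 counts in all against 4596. Wnt9a (ENSMUSG00000000126, chromosome 11 from 59306928 to 59333552, plus strand), a ligand known from joint formation, was at 79.9 and 80.0 CPM in control and at 93.6 and 92.5 CPM with IL-12. It increased 1.16-fold without overlap of the groups, with a log2 fold change of 0.22 ± 0.05 (SE) and an edgeR adjusted p of 0.00139.

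Wnt4 (ENSMUSG00000036856, chromosome 4 from 137277489 to 137299726, plus strand), which drives the conversion of mesenchyme to nephron epithelium, was the ligand that fell. Its level was 33.7 and 35.2 CPM in control and 25.9 and 21.7 CPM with IL-12, so that both treated libraries lay below both controls. On average this was 34.5 ± 1.06 CPM (SD, n = 2) against 23.8 ± 2.94 CPM (SD, n = 2). Its log2 fold change was -0.53 with a standard error of 0.08, a 1.44-fold decrease with an edgeR adjusted p of 8.34e-05. Wnt4 thus went against Wnt7a, whose 95% interval on the log2 scale ran from 0.52 to 0.77 while that of Wnt4 ran from -0.71 to -0.35.

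Wnt6 and Wnt2b were tested at low depth and were not called. Wnt6, a ligand of the nephric duct, had 18 and 16 counts in control and 7 and 11 counts with IL-12, and its 95% interval on the log2 scale ran from -1.91 to 0.09 (edgeR adjusted p = 0.169). Wnt2b had 6 and 13 counts in control and 8 and 13 counts with IL-12, with an interval from -1.03 to 1.32. A change of 2-fold in either of these genes was not detectable at this depth. Wnt10b, Wnt3a and Wnt9b were at 0 in all 4 libraries, and Wnt1, Wnt2, Wnt3, Wnt8a, Wnt8b, Wnt10a, Wnt11, Wnt16 and Wnt5b had 0 to 6 counts in any library. The Wnt5b row is further limited by Fbxl14, which overlaps it on the opposite strand with 3456 counts in all against 16.

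Levels were compared between genes on the FPKM scale, which takes account of gene length. In the controls Wnt9a (24.01 FPKM) and Wnt7b (23.1 FPKM) were the highest ligands, followed by Wnt7a (12.7 FPKM), Wnt4 (8.22 FPKM) and Wnt5a (7.13 FPKM). With IL-12 Wnt7b (30.2 FPKM) stood above Wnt9a (27.98 FPKM), and Wnt4 (5.68 FPKM) stood below Wnt5a (8.40 FPKM). Summed over the 19 ligands, the level was 74.7 and 77.2 FPKM in control and 94.96 and 90.5 FPKM with IL-12. Wnt7a made up 16.2% and 17.2% of this sum in control and 21.3% and 21.6% with IL-12. Wnt7b made up 30.3% and 30.6% in control and 33.1% and 32.1% with IL-12. The share of Wnt4 was 10.8% and 10.9% in control and 6.504% and 5.73% with IL-12. Shares of Wnt9a, from 31.1% to 32.1% in control and from 29.6% to 30.7% with IL-12, and of Wnt5a, from 9.14% to 9.64% and from 8.96% to 9.15%, moved less.

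**Figure D2:**
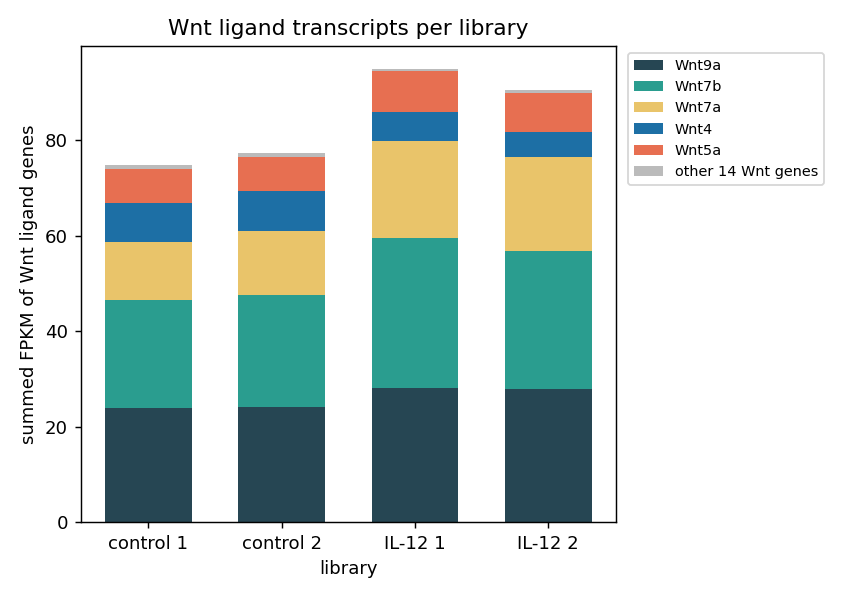
Stacked FPKM of the Wnt ligand genes in each library. Bar height is the sum over all 19 ligand genes and colours are ligands; the Wnt7a and Wnt7b segments are taller and the Wnt4 segment is shorter in both IL-12 libraries.

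Of the 10 Frizzled receptors, which bind Wnt proteins at the cell surface, 9 were tested, 1 rose and 8 were not called. Fzd10 was at 0 in all 4 libraries. The share called was 11.1%, against 30.5% over all genes tested (16.1% higher). Fzd6 (ENSMUSG00000022297, chromosome 15 from 39006034 to 39038188, plus strand), a receptor linked to planar polarity, had 127.4 and 131.9 CPM in control and 147.7 and 148.7 CPM with IL-12. The groups did not overlap, and the increase was 1.14-fold, with a log2 fold change of 0.19 ± 0.04 (SE) and an edgeR adjusted p of 0.00145. Gm26704 overlaps Fzd6 with 49 counts in all against 10516.

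Fzd1 and Fzd7 had the highest FPKM of all members in the controls, at 53.5 and 40.6 FPKM. Fzd1 was at 222.4 and 226.7 CPM in control and at 233.8 and 222.6 CPM with IL-12, and Fzd7 at 183.2 and 184.8 CPM and at 188.4 and 179.2 CPM. The groups overlapped for both, and their 95% intervals on the log2 scale, from -0.05 to 0.10 for Fzd1 and from -0.08 to 0.08 for Fzd7, included 0. The intervals of Fzd2 (-0.14 to 0.07), Fzd5 (-0.12 to 0.18), Fzd3 (-0.23 to 0.12) and Fzd8 (-0.29 to 0.18) also included 0, and the libraries of the groups overlapped. Fzd4, the receptor of the ligand Norrin as well as of Wnt proteins, had 7.29 and 7.74 CPM in control and 9.20 and 8.29 CPM with IL-12, which did not overlap but were not called (log2 interval -0.07 to 0.51, edgeR adjusted p = 0.253).

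Fzd9 had the highest log2 fold change of the members, 0.96, on few reads, with 9 and 17 counts in control and 32 and 19 counts with IL-12. Both treated libraries lay above the controls, yet the edgeR adjusted p was 0.0995 and the log2 interval ran from 0.07 to 1.85. With 1 library left out, the log2 fold change was 0.573 without control 1 and 1.48 without control 2. It was 0.606 without IL-12 1 and 1.23 without IL-12 2, so that the size of the change depended on single libraries.

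**Figure D3:**
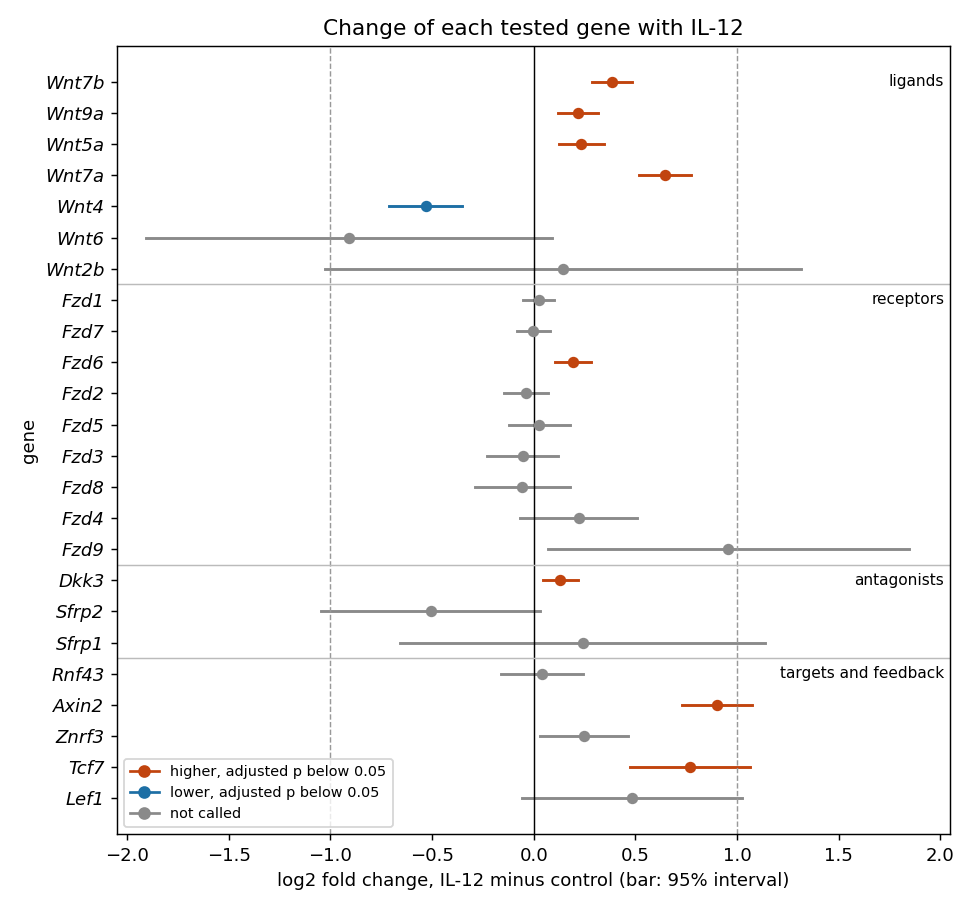
Log2 fold change (IL-12 minus control) of the 24 tested genes from edgeR, with 95% intervals as bars, grouped by role; dashed lines mark 2-fold. Orange genes were called higher and the blue gene, Wnt4, lower, while most Frizzled receptors lie near 0 and the genes with the fewest reads have the widest bars.

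Among the 8 antagonists, 3 were tested, 1 was called higher and 2 were not called. This was 33.3% called, against 30.5% over all genes tested (16.1% higher). Dkk3 (ENSMUSG00000030772, chromosome 7 from 112116017 to 112159057, minus strand) is a divergent Dkk protein whose part in Wnt signalling is debated. It had 131.4 and 127.9 CPM in control and 143.1 and 140.8 CPM with IL-12, a 1.10-fold increase without overlap, with a log2 fold change of 0.13 ± 0.04 (SE) and an edgeR adjusted p of 0.0226. This call was lost with total counts alone (adjusted p = 0.116), with DESeq2 (0.0982), without a filter (0.0579), without control 2 (0.182), without IL-12 1 (0.108) and without IL-12 2 (0.0552).

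The Sfrp proteins resemble the ligand-binding part of Frizzled receptors. Sfrp2 had 49 and 63 counts in control and 45 and 34 counts with IL-12, with IL-12 below control but an edgeR adjusted p of 0.152 and a log2 interval from -1.04 to 0.03. Sfrp1 had 14 and 13 counts in control and 17 and 15 counts with IL-12, with a log2 interval from -0.66 to 1.14. Sfrp4 and Sfrp5 had 0 to 2 counts in any library. Dkk1, Dkk2 and Dkk4, the secreted blockers or modulators of the Lrp co-receptors, were at 0 in all 4 libraries.

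Of the 7 targets and feedback regulators, 5 were tested, 2 rose and 3 were not called. The share called was 40.0%, against 30.5% over all genes tested (16.1% higher). Axin2 (ENSMUSG00000000142, chromosome 11 from 108920349 to 108950783, plus strand), a scaffold of the β-catenin destruction complex that canonical signalling itself induces, had 20.01 and 20.6 CPM in control and 40.2 and 35.4 CPM with IL-12. Both treated libraries were above both controls. From 20.3 ± 0.390 CPM (SD, n = 2) it went to 37.8 ± 3.36 CPM (SD, n = 2), a 1.87-fold increase with a 95% interval of 1.66 to 2.10, and the log2 fold change was 0.90 ± 0.08 (SE) with an edgeR adjusted p of 1.04e-07. The overlapping opposite-strand gene Gm11670 had 11 counts in all against 2203.

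Tcf7 (ENSMUSG00000000782, chromosome 11 from 52252371 to 52283014, minus strand), which encodes a TCF/LEF factor, had 6.07 and 6.89 CPM in control and 11.8 and 10.3 CPM with IL-12. The groups were apart, at 6.48 ± 0.578 CPM (SD, n = 2) against 11.03 ± 1.06 CPM (SD, n = 2). The increase was 1.70-fold, with a log2 fold change of 0.77 ± 0.14 (SE) and an edgeR adjusted p of 0.000299. Gm26551 and A630014C17Rik overlap Tcf7 with 16 and 11 counts in all against 664.

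Lef1, the closest relative of Tcf7 among the members, had 47 and 39 counts in control and 75 and 46 counts with IL-12. The depth-scaled values, 2.48 and 2.07 CPM against 3.79 and 2.54 CPM, did not overlap by a narrow margin, and the edgeR adjusted p was 0.176. Znrf3, a membrane ubiquitin ligase that removes Frizzled receptors, had 13.2 and 14.6 CPM in control and 16.5 and 16.6 CPM with IL-12, with a log2 interval from 0.03 to 0.47 and an edgeR adjusted p of 0.0793. Its partner Rnf43 had 22.8 and 21.04 CPM in control and 24.5 and 20.5 CPM with IL-12, which overlapped. Nkd1 and Nkd2, which restrain Dishevelled, had 0 to 4 counts in any library.

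Other genes of the pathway were read from 7 lists with 145 genes, of which 107 were tested. Of these, 12 were higher (16.1% of all genes tested were), 35 were lower (14.4% of all genes tested were) and 60 were not called, and the median log2 fold change was -0.06. Among the co-receptors 10 of 14 were tested, with 6 lower and 1 higher. Lgr4, a receptor for R-spondins, fell by 0.46 on the log2 scale with a standard error of 0.06 (edgeR adjusted p = 1.94e-05), from 45.3 and 45.5 CPM in control to 33.2 and 32.7 CPM with IL-12. Lrp5 fell from 140.4 and 144.7 CPM to 118.0 and 121.0 CPM (edgeR adjusted p = 0.000137). For Lrp6, the co-receptor that acts beside it, the log2 interval was -0.08 to 0.12 and no call was made. The heparan sulfate proteoglycans Gpc4 and Sdc1 and the Wnt-binding receptor Ryk also fell, with log2 fold changes of -0.35, -0.29 and -0.25. Lgr6, named after its values were seen since it was the list's 1 higher call, had 3 and 8 counts in control and 23 and 15 counts with IL-12. It passed the filter through the IL-12 libraries alone, so this call is a description. Its edgeR adjusted p was 0.0185, and it lost the call without control 1 (0.154) and without IL-12 1 (0.147).

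Of 19 genes for ligand secretion and extracellular modulation, 8 were tested and 4 were lower. By edgeR 0 were higher at any p below 0.05, adjusted or not, and 0 were called higher by DESeq2. The shares over all genes tested were 14.4% lower and 16.1% higher. Wls, the carrier that brings Wnt proteins to the cell surface, had 748.9 and 734 CPM in control and 613.7 and 633.1 CPM with IL-12 (log2 fold change -0.25, edgeR adjusted p = 1.7e-06). Porcn, the acyltransferase that attaches the lipid, had a log2 fold change of 0.04 and was not called. Apcdd1, a membrane inhibitor that binds Wnt and Lrp5, fell from 35.0 and 35.8 CPM to 21.1 and 19.0 CPM, with a log2 fold change of -0.82 ± 0.08 (SE) and an edgeR adjusted p of 2.73e-07. Reck, a membrane partner of Wnt7 signalling, fell with a log2 fold change of -0.45 (edgeR adjusted p = 0.0036). Draxin had 12 and 14 counts in control and 3 and 3 counts with IL-12. It passed the filter through the control libraries alone, so its call among the 4 is given as a description, and with at least 10 counts required in every library it was not tested and 3 lower calls were left. Without IL-12 1 the count of lower calls was 2, since Reck (edgeR adjusted p = 0.0505) and Draxin (0.0861) were lost, and Draxin was also lost without control 2 (0.0687) and without IL-12 2 (0.0643).

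The 25 tested of 27 genes of the destruction complex and cytoplasmic relay gave 6 lower, 1 higher and 18 not called. Their median log2 fold change was -0.04. Over all genes tested, 30.5% were called, 14.4% lower and 16.1% higher. The share called in this list was slightly below that of all genes tested. Dact2 (-0.56) and Amer1 (-0.30) had the larger changes among those named here, and Dvl3 (-0.19), Gsk3b (-0.11) and Csnk1e (0.13) the smaller ones. Each of these calls was lost without some library. Without IL-12 1, 1 of the 6 lower calls in the list was left, with edgeR adjusted p of 0.0561 for Dvl3, 0.161 for Amer1 and 0.285 for Gsk3b. Amer1 (0.0863) and Gsk3b (0.274) were also lost without control 1, and Dact2 without control 2 (0.0865) and without IL-12 2 (0.117). The higher call of Csnk1e was lost without control 2 (edgeR adjusted p = 0.222), without IL-12 1 (0.0666) and without IL-12 2 (0.0932).

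β-catenin and its nuclear partners were measured completely, with 18 of 18 tested. Of these, 11 fell, 7 were not called and 0 were called higher by edgeR or DESeq2, with 1 (Ctnnb1) higher at an unadjusted p below 0.05. Over all genes tested, 14.4% were lower and 16.1% higher. Ctnnb1, which encodes β-catenin, had 501.2 and 487.5 CPM in control and 522.3 and 510.3 CPM with IL-12, with a log2 fold change of 0.06, an unadjusted p of 0.0497 and an adjusted p of 0.126 by edgeR's model across all genes. Tcf7l2, the TCF factor with the deepest coverage among the TCF/LEF genes named here, fell from 64.3 and 62.4 CPM to 49.8 and 46.1 CPM (log2 fold change -0.40 ± 0.06 (SE), edgeR adjusted p = 2.69e-05), while Tcf7 rose as given above. The cofactors Ldb1, Tle3, Bcl9 and Hbp1 fell with log2 fold changes of -0.23, -0.27, -0.28 and -0.44.

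Of the 34 further β-catenin targets, 22 were tested, 8 rose, 3 fell and 11 were not called. The shares over all genes tested were 16.1% higher and 14.4% lower. Ccnd1, the cell cycle regulator cyclin D1, rose from 377.7 and 371.1 CPM to 556.3 and 543.5 CPM (log2 fold change 0.55 ± 0.03 (SE), edgeR adjusted p = 1.09e-10). Myc rose from 50.5 and 50.2 CPM to 76.3 and 75.9 CPM (edgeR adjusted p = 5.86e-08), and Fosl1, a subunit of AP-1, from 26.3 and 27.6 CPM to 54.4 and 49.1 CPM (edgeR adjusted p = 9.08e-09). Wisp1, a secreted matricellular protein, went from 256.1 and 269.6 CPM to 370.8 and 374.7 CPM (edgeR adjusted p = 2.41e-09). L1cam, an adhesion molecule, fell from 124 and 120.4 CPM to 71.0 and 71.6 CPM (edgeR adjusted p = 4.72e-10). These genes answer to many signals besides Wnt. Of 9 targets described in injured kidney, 4 were tested, 1 rose, 1 fell and 2 (Snai1 and S100a4) were not called. Fn1 (fibronectin) rose from 3029 and 3064 CPM to 3947 and 3974 CPM (edgeR adjusted p = 1.68e-10), and Agt (angiotensinogen) fell from 50 and 48 counts to 17 and 19 counts (edgeR adjusted p = 0.00131).

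**Figure D4:**
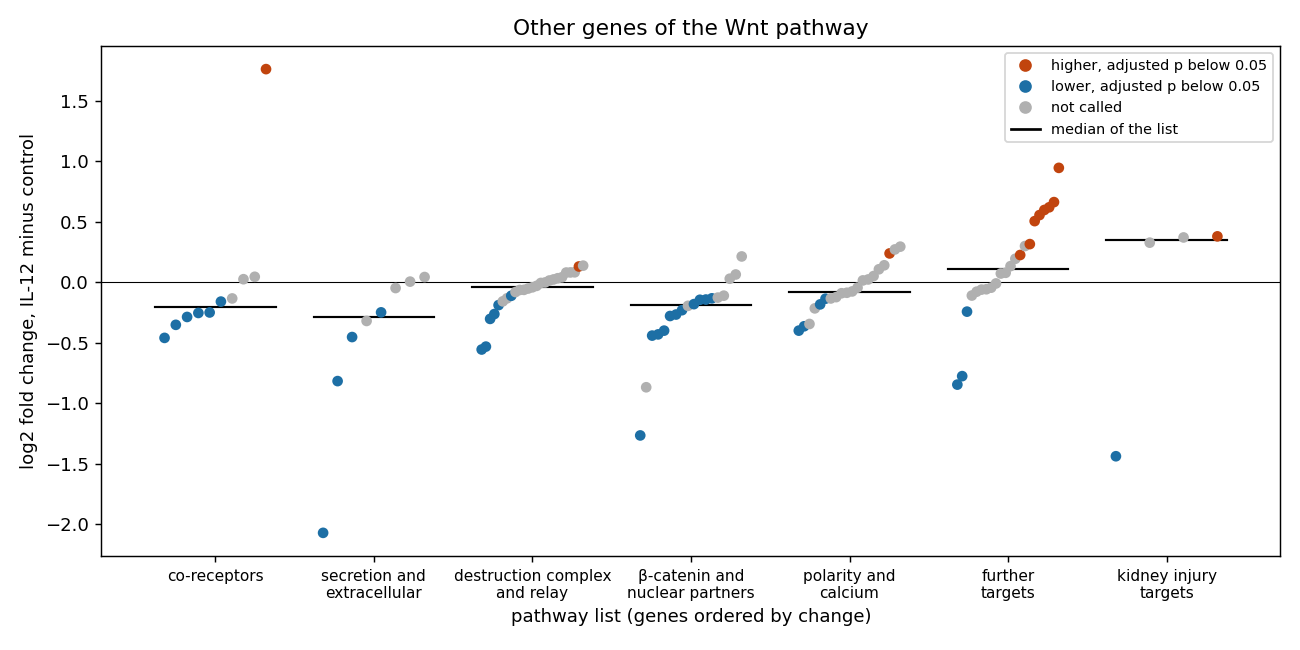
Log2 fold change (IL-12 minus control) of each tested gene in the 7 pathway lists, ordered by size within a list; colours mark calls and the horizontal bars the list medians. Lower calls outnumber higher calls among the co-receptors (6 and 1) and nuclear partners (11 and 0). Higher calls outnumber lower ones among the further targets (8 and 3). The shares over all genes tested were 16.1% higher and 14.4% lower.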

How the data were processed

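RNA-sequencing of MPC5 podocytes was analysed for 2 control and 2 IL-12 libraries, grouped by the sample labels; the dose is from the methods of the study. Every test used the raw counts that the authors deposited for each gene. Levels were compared with the deposited FPKM values between genes, which equalled the count scaled to gene length and library total, times 0.985, 0.989, 1.02 and 1.02 in the 4 libraries. The submitters' processing notes name HISAT2, StringTie and mm9, whereas the deposited coordinates equalled those of GRCm38 for 43 of the 44 genes, so GRCm38 is given. The counting program and its use of strand are not given in the sources used here.

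The software was edgeR 4.0.16 in R 4.3.3. Genes were kept by filterByExpr (minimum 10 counts, 15 in total), which asks for the minimum in as many libraries as a group holds, from any group, so a gene could pass through its higher group alone. Libraries were scaled by TMM (factors 1.02, 1.01, 0.985 and 0.987) and p-values from the quasi-likelihood fit of edgeR were adjusted by Benjamini-Hochberg over all 14095 genes. Standard errors are the log2 fold change over the square root of F, and intervals are 95%. An exact permutation test of 2 against 2 libraries cannot go below p = 0.333, so p-values rest on edgeR's model of the spread. Alternatives were RLE scaling, total counts alone, DESeq2 1.42.0, no filter, at least 10 counts in every library, a replicate block and leaving out each library. Figures were drawn with matplotlib 3.10.9 in Python 3.11.15.

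The genes and lists were chosen with earlier results of these data known. Every tested member is named, and from each list up to 5 called genes with the smallest p, plus Ctnnb1, Lrp5, Lrp6, Porcn and Wls. A gene of a pathway list and a cell type marker are not reported here.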

Additional observations from a re-analysis of the deposited data

How the results depend on the processing

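The deviations of same-numbered libraries from their group means correlated with r = -0.0267 over 14095 genes. Whether the libraries were grown or prepared in pairs is not stated, and this value from 2 libraries a group cannot decide it. With the replicate block the members gave 8 higher and 1 lower, all genes 2272 higher and 2069 lower, and the lists together 12 higher and 38 lower. Wnt4, Wnt5a, Wnt7a, Wnt7b, Wnt9a, Fzd6, Axin2 and Tcf7 kept their calls under every alternative run, and Dkk3 did not. DESeq2 called 1492 genes higher, 1213 lower and 103 over 2-fold, 23 list genes lower, 2 lower each in the relay and polarity lists, and 0 lower in the kidney injury list, where Agt got no adjusted p from DESeq2. Higher calls were 0 under DESeq2 and without a filter for co-receptors, relay and polarity, 0 with at least 10 counts in every library for co-receptors, and 0 under total counts alone for relay and polarity. Without a filter the relay list had 3 lower. Under total counts alone the members' median log2 fold change was 0.13, and Fzd1 (-0.017), Fzd5 (-0.012) and Lrp6 (-0.017) changed sign. The cause was not tested. Leaving out each library gave 1273 to 1769 genes lower, 0 to 1 members over 2-fold (Fzd9), 22 to 30 list genes lower, 2 to 4 lower for secretion, 1 to 5 for relay and 2 to 3 for polarity, and 0 to 1 higher for co-receptors, relay and polarity each. Uncalled genes changed sign when a library was left out, namely Wnt2b (-0.309 to 0.796), Fzd1 (-0.013 to 0.058), Fzd2 (-0.092 to 0.012), Fzd5 (-0.002 to 0.058), Fzd7 (-0.038 to 0.034), Fzd8 (-0.226 to 0.136), Rnf43 (-0.094 to 0.160), Lrp6 (-0.059 to 0.103) and Porcn (-0.056 to 0.130). Depth limits Wnt6, Wnt2b, Fzd9, Sfrp1, Sfrp2 and Lef1, whose intervals are wide, and 2 libraries a group limit all p-values.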

Other observations

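Genes of the planar cell polarity and calcium branches, which carry Wnt signals without β-catenin, were measured beside the canonical genes. Of 24 genes, 20 were tested, 4 were lower, 1 was higher and 15 were not called, and the median log2 fold change was -0.08. The share called in this list was below the 30.5% called over all genes tested. Over all genes tested, 14.4% were lower and 16.1% higher. Celsr1, an atypical cadherin of planar polarity, fell from 43.2 and 45.7 CPM in control to 33.5 and 33.9 CPM with IL-12 (log2 fold change -0.40 ± 0.07 (SE), edgeR adjusted p = 0.000114). Camk2d, a calcium and calmodulin dependent kinase, fell from 56.5 and 53.3 CPM to 43.4 and 41.8 CPM (log2 fold change -0.36, edgeR adjusted p = 0.00012). Both calls held under every alternative run. Vangl1, Daam1 and Camk2g had log2 fold changes of -0.18, 0.24 and -0.14, and each lost its call under DESeq2, with adjusted p of 0.103, 0.189 and 0.185. Without IL-12 1 these adjusted p were 0.0601, 0.0911 and 0.114, and without IL-12 2 they were 0.0949, 0.202 and 0.142. Vangl1 was also lost without control 2 (0.0789), Daam1 without control 1 (0.243), and Camk2g without control 1 (0.229) and control 2 (0.054).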
